A study of Mus musculus with 8 samples.

Results

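The genes described here are 33 genes of the lysosome, among them hydrolases, lipid-handling and activator proteins, membrane proteins, subunits of the proton pump and the transcription factor Tfeb. They were chosen by gene name, and each was represented on the array by at least 1 probe well above background on at least 2 of the 8 arrays. The 33 genes belong to 20079 features tested, and 61 of their 66 probes passed that filter, among 56605 probes on the array. The probe with the highest mean level stood for its gene, and all 33 of these probes were well above background on all 8 arrays. At the edge of the filter, 1 of the further Atp6v1h probes passed with 2 arrays well above background, and 1 of the further Glb1 probes with 1 such array did not.

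The cells were RAW264.7, a mouse macrophage line, in RPMI1640 medium with serum. They received 1 mM melatonin for 1 h or none, and then 100 ng/ml lipopolysaccharide (LPS, a bacterial cell wall component that activates macrophages) for 1, 3 or 5 h or none. The 8 conditions were melatonin with 0, 1, 3 and 5 h of LPS, and no melatonin with 0, 1, 3 and 5 h of LPS, with 1 one-colour array each. Whether melatonin stayed on the cells during the LPS hours is not stated in the labels read here. Conditions follow the sample titles, since the treatment labels of 3 melatonin samples give an LPS time 1 step later and that of the melatonin sample titled 5 h gives none. A line grown in culture lacks the other cells of a tissue, and the untreated culture of each arm was the only comparator for all its LPS times.

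Lysosomes are acidic compartments in which hydrolases break down proteins, glycans and lipids that arrive by phagocytosis, endocytosis and autophagy. A vacuolar proton pump (V-ATPase) acidifies them, and heavily glycosylated membrane proteins line their wall. Tfeb is a basic helix-loop-helix factor that binds the CLEAR motif, an extended E-box, in front of many lysosomal genes, and macrophages use the compartment both for killing microbes and for preparing antigens.

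Promoter windows are shown because the CLEAR motif is what many lysosomal genes are known to share, while their values on the arrays ran in different directions. A window of 300 bases (250 before and 50 after the transcription start, RefSeq, GRCm38.p6) was found for 27 of the 33 genes, 31 windows in all. The E-box CACGTG, which reads the same on both strands, stood in 11 of the 31 windows (35.5%), against 7.15% of 32851 promoter windows of that length. The longer TCACGTGA, which contains the E-box, stood in 6 windows (19.4%), against 0.974% of all windows. The full CLEAR palindrome, which has TCACGTGA at its centre and 1 more base on each side, stood in 0 of the 31 windows (0%). It stood in 107 of all 32851 windows (0.326%), so a form this rare could be missing from 31 windows in any case. Matches of all these forms are letters in a window and not binding sites, and a window without them says nothing of Tfeb. The windows below belong to Ctsa and Gla (with TCACGTGA), Mcoln1 (with TCACGTGA) and Lamp1, and capitals mark each E-box. In order of listing they lie at chr2:164833523-164833822 on the plus strand, chrX:134600956-134601255 on the minus strand, chr8:3500269-3500568 on the plus strand and chr8:13158911-13159210 on the plus strand.
Ctsa: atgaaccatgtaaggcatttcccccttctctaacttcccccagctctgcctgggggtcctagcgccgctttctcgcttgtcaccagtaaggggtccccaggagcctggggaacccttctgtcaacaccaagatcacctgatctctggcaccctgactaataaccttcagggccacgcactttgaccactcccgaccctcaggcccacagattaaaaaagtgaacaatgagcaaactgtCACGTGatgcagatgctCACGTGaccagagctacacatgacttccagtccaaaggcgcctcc
Gla: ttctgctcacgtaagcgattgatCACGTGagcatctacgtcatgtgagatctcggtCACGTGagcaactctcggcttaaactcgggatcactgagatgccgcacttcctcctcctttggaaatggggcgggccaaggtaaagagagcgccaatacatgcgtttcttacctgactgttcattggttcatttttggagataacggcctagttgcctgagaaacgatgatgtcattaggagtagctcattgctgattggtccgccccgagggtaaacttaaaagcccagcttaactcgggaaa
Mcoln1: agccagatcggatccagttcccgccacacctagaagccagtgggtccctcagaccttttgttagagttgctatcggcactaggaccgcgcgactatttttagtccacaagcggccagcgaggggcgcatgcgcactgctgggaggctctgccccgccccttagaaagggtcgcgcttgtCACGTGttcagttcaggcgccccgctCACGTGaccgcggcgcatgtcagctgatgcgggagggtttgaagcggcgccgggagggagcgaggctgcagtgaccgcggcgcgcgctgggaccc
Lamp1: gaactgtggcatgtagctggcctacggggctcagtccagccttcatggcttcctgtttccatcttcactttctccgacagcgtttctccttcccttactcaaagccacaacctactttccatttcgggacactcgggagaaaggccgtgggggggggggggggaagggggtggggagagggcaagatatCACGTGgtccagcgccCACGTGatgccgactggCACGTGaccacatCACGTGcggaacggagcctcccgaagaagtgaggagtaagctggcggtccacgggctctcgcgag
Lamp1 had 4 E-boxes shortly before the start, and Ctsa, Gla and Mcoln1 had 2 each. Gla rose after 5 h of LPS and Lamp1 and Mcoln1 fell, while Ctsa was called lower at 5 h only with quantile normalization and the deposited log2 table.

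Levels below are log2 signals as processed by the scanner software, less the 75th percentile of their array, so 0 is that percentile. Where 4 values are listed for an arm, they are those at 0, 1, 3 and 5 h of LPS. A change is a difference of such levels from a limma model of LPS time and melatonin over all 8 arrays, given with its standard error (SE), and was called where the Benjamini-Hochberg adjusted p over all 20079 features was under 0.05. LPS changes rest on 2 arrays (1 per arm) against the 2 arrays without LPS, and melatonin differences on 4 arrays against 4. With 1 culture per condition, a p-value here reflects no more than the scatter of the 8 arrays around the model, part of which may be technical. In the model of LPS time and melatonin, that scatter also holds any difference between the arms in their response to LPS. It is not a spread of replicates. In a culture, fewer cells of a kind and less RNA per cell cannot be told apart, nor can an LPS time and the hours in culture that went with it.

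Of 10 macrophage markers, 9 were well above background on all 8 arrays (among them Cd68, Csf1r and Adgre1) and Mrc1 on none. The markers of B cells, fibroblasts, epithelial cells and neutrophils were not well above background on all 8 arrays for any gene, but the T cell markers Cd3e and Cd4 were. The summed level of the macrophage list (log2) lay between 9.63 and 9.79 with melatonin and between 9.80 and 10.05 without it, and that of the T cell list between 2.27 and 2.41 with melatonin and between 2.64 and 2.78 without it. Their part in the differences below was not tested. Slide position followed the design, with row following arm and column following LPS time, so position cannot be told apart from either.

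LPS changed lysosomal genes in both directions. After 1 h no member was called (0 of 33), where 1.96% of all features were (1.67% higher, 0.284% lower), and 3 members had an unadjusted p under 0.05; with the mean of all entered probes of a gene, Ctsh and Gusb were called lower at 1 h. After 3 h 19 of 33 were called (57.6%), 7 higher and 12 lower, against 33.7% of all features (18.6% higher, 15.1% lower). After 5 h 23 of 33 were called (69.7%), 11 higher and 12 lower, against 44.2% of all features (24.9% higher, 19.4% lower). The median change of the members at 5 h was 0.10, against 0.08 for all features, and the median size without sign was 0.43 against 0.38. At 3 h the median size was 0.317 for the members and 0.321 for all features. The larger share called at 3 h thus did not go with a larger median size. In both arms, 14 members were ordered upward over 0, 3 and 5 h (42.4%, against 19.5% of all features), and 9 downward (27.3%, against 13.7%). These orders were counted with the scaling used here only.

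The split between directions depended on scaling. With quantile normalization 22 members were called at 5 h, 6 higher and 16 lower (27.3% higher, against 47.8% with the scaling used here), and 22 at 3 h, 5 higher and 17 lower (22.7% against 36.8%). Among all features that scaling moved the higher share at 5 h to 43.2%, against 56.2%. The median change of the members at 5 h turned negative, to -0.13 with quantile normalization, where that of all features was -0.008. It was -0.12 with the deposited log2 table and -0.18 with the mean of all entered probes. The calls at 3 h also leaned on single arrays, above all on those at 0 h and 3 h. Fewest were left without the 0 h array lacking melatonin, among the members and over all features alike.

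**Figure D1:**
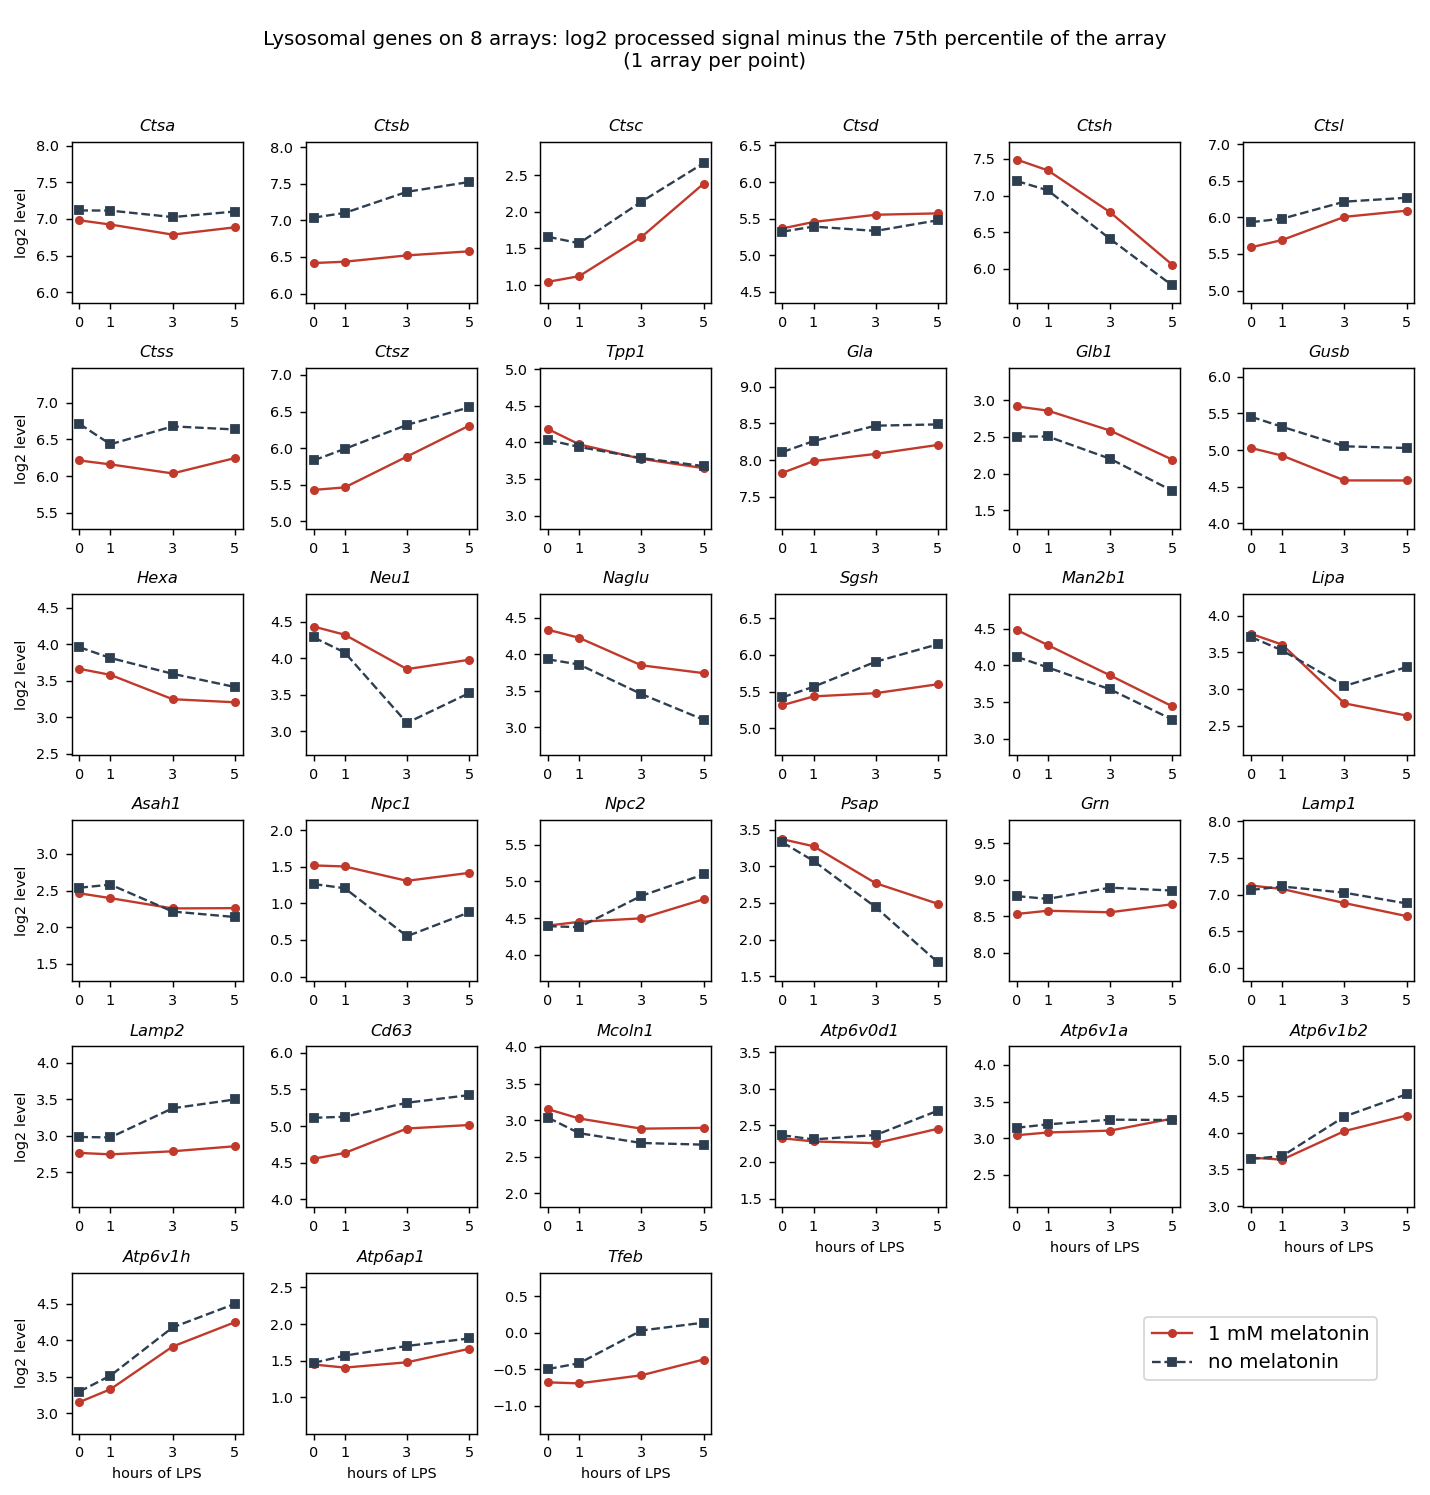
Log2 level (log2 signal less the 75th percentile of its array, vertical axes) of the 33 genes against hours of LPS (0, 1, 3 and 5), with melatonin (red circles, solid lines) and without it (dark squares, dashed lines). Each point is 1 array and every panel spans the same range of log2 units. Ctsh falls in both arms to 6.05 with melatonin and 5.77 without it, and Ctsb is at 6.58 or lower in every melatonin array.

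The cathepsins and the other peptidases split. At 5 h, 4 of the 9 genes had risen (Ctsb, Ctsc, Ctsl and Ctsz) and 2 had fallen (Ctsh and Tpp1), and Ctsa, Ctsd and Ctss were not called. With quantile normalization Ctsa (-0.35, adjusted p = 0.000995) and Ctss (-0.34, adjusted p = 0.0143) were called lower at 5 h, as they were with the deposited log2 table. Ctsa was called lower at 3 h (-0.14, adjusted p = 0.0437). Of the 16 alternatives, 12 ended that call, among them leaving out any 1 of the 8 arrays, while quantile normalization gave a larger fall (-0.36, adjusted p = 0.00143). Ctsh, an aminopeptidase of the papain-like cysteine cathepsins (probe at chr9:89970828-89970887 in mm9), had levels of 7.49, 7.34, 6.77 and 6.05 with melatonin and 7.20, 7.07, 6.41 and 5.77 without it. Both 5 h arrays lay below both 0 h arrays, and the order 0, 1, 3, 5 h was the same in both arms. Ctsh fell by 1.43 on the log2 scale at 5 h (SE 0.04, limma adjusted p = 7.41e-05), the lowest adjusted p among the members, and this call held under all 16 alternatives. Several of these alternatives could hardly move the value of a member, as the closing section sets out.

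Of 5 Ctsh probes, 4 passed the filter and all 4 had negative changes at 5 h, between -3.03 and -1.43. One of them, matched to another transcript and lying 5′ of the other 3 at chr9:89950039-89950098 (mm9), was already down at 1 h, with levels of 1.27, -1.43, -1.16 and -1.58 with melatonin and 0.70, -1.76, -2.59 and -2.50 without it. The other 3 had changes between -0.19 and 0.02 at 1 h in the 2 arms. Taking the mean over all entered probes of a gene made Ctsh (-0.72, adjusted p = 0.016) and Gusb (-0.52, adjusted p = 0.0475) the 2 members called at 1 h.

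Ctsc, the dipeptidyl peptidase that activates granule serine proteases, moved the other way. Its probe (chr7:95458436-95458495 in mm9) had levels of 1.04, 1.12, 1.65 and 2.38 with melatonin and 1.66, 1.57, 2.14 and 2.66 without it. Both 5 h arrays were the highest of their arm and lay above both 0 h arrays. Ctsc rose by 1.17 (SE 0.10, adjusted p = 0.000842). Ctsz, a carboxypeptidase, had levels of 5.43, 5.46, 5.89 and 6.31 with melatonin and 5.83, 5.99, 6.32 and 6.56 without it, and rose by 0.80 (SE 0.07, adjusted p = 0.000873; 0.47 with quantile normalization). Both genes climbed at every step from 1 h on in both arms.

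Smaller rises were called for Ctsl and Ctsb, endopeptidases of the same family. Ctsl rose by 0.42 (SE 0.06, adjusted p = 0.00317), a call lost only with quantile normalization and the deposited log2 table. Ctsb rose by 0.32 (SE 0.09, adjusted p = 0.028), with 0.16 in the melatonin arm and 0.49 in the arm without it. Its call was lost without the arrays lacking melatonin at 0 h or 5 h (adjusted p 0.16 and 0.174), and with quantile normalization no change was left (-1e-04). Tpp1, a tripeptidyl peptidase, fell by 0.45 on the log2 scale (SE 0.07, adjusted p = 0.00548), and that call held under all 16 alternatives, with -0.68 under quantile normalization.

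Of the enzymes that strip sugars or sulfate from glycans, most fell. At 5 h all 8 genes of this role were called, 6 lower (Man2b1, Glb1, Naglu, Neu1, Hexa and Gusb) and 2 higher (Gla and Sgsh), though Gusb and Sgsh were not called in these directions with the mean of all entered probes. Man2b1, the lysosomal alpha-mannosidase (probe at chr8:87621348-87621407 in mm9), had levels of 4.48, 4.28, 3.86 and 3.44 with melatonin and 4.12, 3.97, 3.67 and 3.26 without it. It declined at each step in both arms, and both 5 h arrays lay below both 0 h arrays. The fall was 0.95 on the log2 scale, and it was called with an adjusted p of 0.000644 (SE 0.08).

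Glb1, the beta-galactosidase, had levels of 2.92, 2.86, 2.59 and 2.19 with melatonin and 2.51, 2.51, 2.20 and 1.76 without it. Naglu, which acts on heparan sulfate, had levels of 4.33, 4.22, 3.85 and 3.74 with melatonin and 3.93, 3.86, 3.46 and 3.11 without it. In both genes the 5 h arrays were the lowest of their arm. They fell by 0.73 (SE 0.07, adjusted p = 0.00126) and by 0.71 (SE 0.09, adjusted p = 0.00233) on the log2 scale, and both calls held under all 16 alternatives.

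Neu1, the lysosomal sialidase, had its lowest level at 3 h. Levels were 4.43, 4.32, 3.85 and 3.98 with melatonin and 4.28, 4.08, 3.12 and 3.52 without it. The 3 h change was -0.88 (SE 0.14, adjusted p = 0.00815), with -0.58 in the melatonin arm and -1.17 in the arm without it, and the 5 h change was -0.61 (adjusted p = 0.0188). The 3 h call was lost without the 0 h array lacking melatonin (adjusted p = 0.0556), and the 5 h call without that array or either 5 h array (adjusted p between 0.0681 and 0.119).

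Hexa, the alpha subunit of beta-hexosaminidase, fell by 0.50 (SE 0.07, adjusted p = 0.00352) and Gusb, the beta-glucuronidase, by 0.43 (SE 0.05, adjusted p = 0.00221) on the log2 scale at 5 h. The value for Gusb was -0.74 with quantile normalization and -0.18 (adjusted p = 0.154) with the mean of its probes. Gusb had already reached its 5 h level at 3 h, with 4.58 at both times with melatonin and 5.05 and 5.03 without it. Gla, the alpha-galactosidase A, had the opposite direction. Its levels were 7.83, 7.99, 8.08 and 8.21 with melatonin and 8.11, 8.26, 8.47 and 8.49 without it, higher at each later time in both arms. The rise at 5 h was 0.38 (SE 0.04, adjusted p = 0.00121). Its call held under all 16 alternatives, but its size was 0.15 with quantile normalization and with the deposited log2 table.

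Lipid handling genes and activator proteins held 1 of the steepest falls among the members. Psap, the precursor of the saposins that help enzymes reach sphingolipids (probe at chr10:59764825-59764884 in mm9), had levels of 3.37, 3.27, 2.77 and 2.49 with melatonin and 3.33, 3.08, 2.44 and 1.69 without it. The arms were close at 0 h and furthest apart at 5 h, and both 5 h arrays lay below both 0 h arrays. Psap fell by 1.26 on the log2 scale (SE 0.18, adjusted p = 0.00351), with changes of -0.88 in the melatonin arm and -1.64 in the arm without it. The difference between the arms at 5 h alone was not tested.

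Lipa, the acid lipase, had levels of 3.75, 3.61, 2.80 and 2.64 with melatonin and 3.71, 3.53, 3.04 and 3.30 without it. With melatonin the level was still falling at 5 h, and without it the 5 h array lay above the 3 h array. Lipa fell by 0.81 at 3 h (adjusted p = 0.0218) and by 0.76 at 5 h (SE 0.19, adjusted p = 0.02) on the log2 scale. The 3 h call was lost without any 1 of the 4 arrays at 0 and 3 h (adjusted p between 0.0587 and 0.111), and the 5 h call without either the 0 h or the 5 h melatonin array (between 0.0569 and 0.103).

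Npc2, which hands cholesterol to Npc1 for export, had levels of 4.40, 4.45, 4.50 and 4.76 with melatonin and 4.39, 4.38, 4.80 and 5.10 without it. It rose by 0.53 at 5 h (SE 0.12, adjusted p = 0.0157), a call lost without the arrays lacking melatonin at 0 h or 5 h (adjusted p 0.0979 and 0.104) and with quantile normalization. Asah1 (acid ceramidase), Npc1 and Grn (progranulin) were not called at 5 h, with changes of -0.30, -0.24 and 0.10. Asah1 was called lower at 5 h with quantile normalization (-0.44, adjusted p = 0.0166) and the deposited log2 table (adjusted p = 0.0172). It was also called lower with normexp background correction (-0.34, adjusted p = 0.0322) and with a filter on all 8 arrays (-0.30, adjusted p = 0.0474). The direction of Grn rested on scaling and on the probe: it was -0.13 with quantile normalization (adjusted p = 0.0127), and its other 2 probes gave -0.43 and -0.39.

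**Figure D2:**
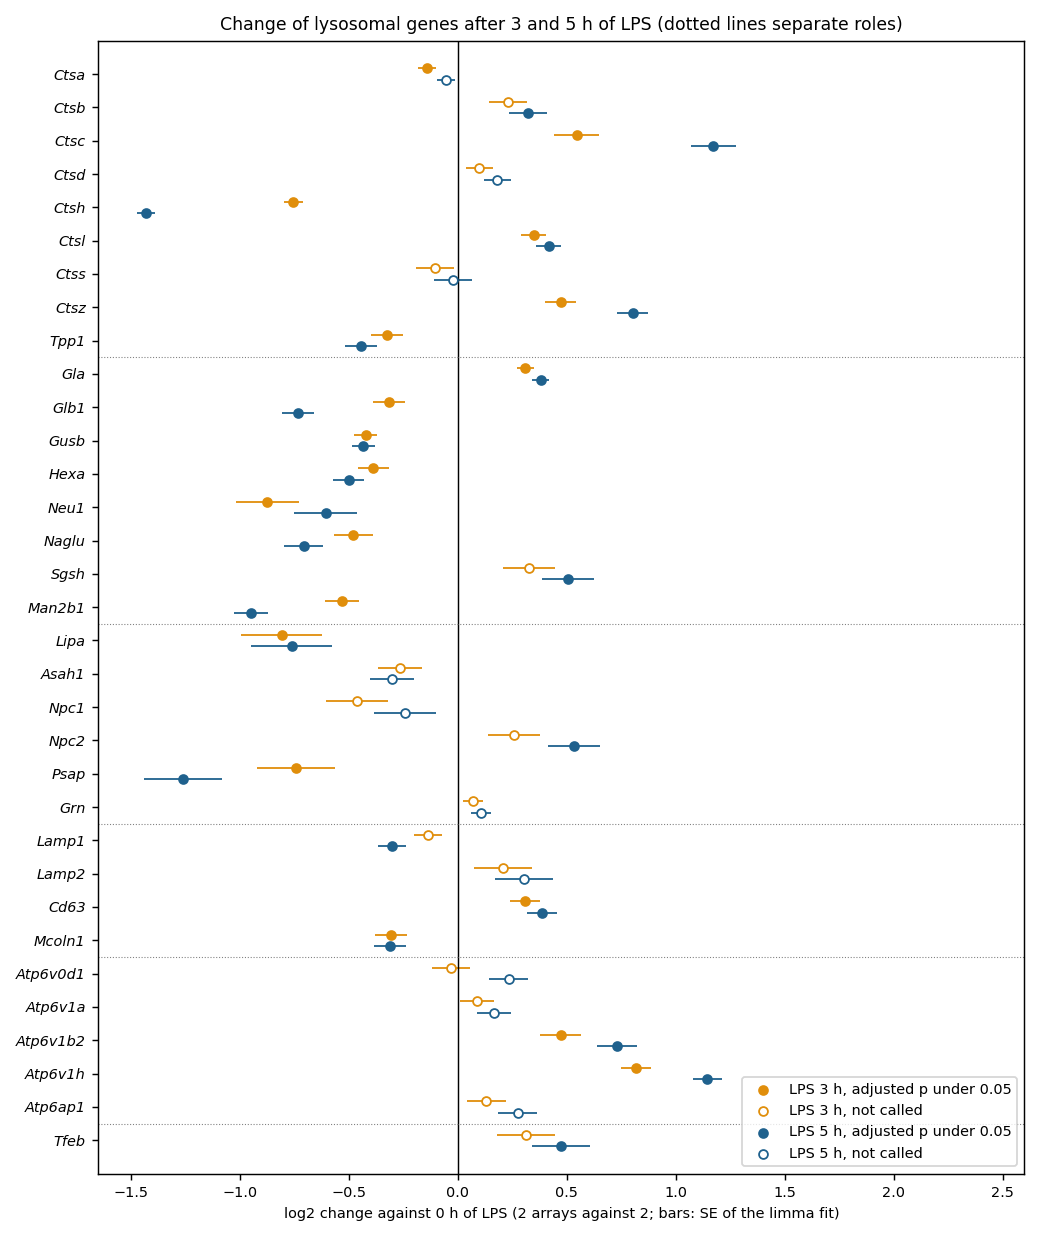
Log2 change of each gene after 3 h (orange) and 5 h (blue) of LPS against no LPS, from 2 arrays against 2, with bars for the SE of the limma fit and filled points where the adjusted p was under 0.05. Dotted lines separate the roles, from peptidases at the top to Tfeb at the bottom. The largest fall is that of Ctsh (-1.43) and the largest rises those of Ctsc (1.17) and Atp6v1h (1.15).

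Membrane proteins of the lysosome moved little. Of 4, Cd63 had risen at 5 h and Lamp1 and Mcoln1 had fallen. Lamp1, a main glycoprotein of the lysosomal wall, had levels of 7.12, 7.08, 6.88 and 6.71 with melatonin and 7.06, 7.11, 7.03 and 6.88 without it. It fell by 0.30 on the log2 scale (SE 0.06, adjusted p = 0.0128), and the call was lost without the melatonin array at 0 h or 5 h (adjusted p 0.0668 and 0.074), while quantile normalization gave -0.62. Mcoln1, a cation channel that releases calcium from lysosomes, fell by 0.31 on the log2 scale (SE 0.07, adjusted p = 0.0182; -0.49 with quantile normalization), but that call was lost on leaving out any of 5 arrays (adjusted p up to 0.132), namely both at 0 h, both at 1 h and the 5 h array without melatonin.

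Cd63, a tetraspanin of late endosomes and lysosomes, rose by 0.39 (SE 0.07, adjusted p = 0.00722), a call lost with quantile normalization (0.07) and the deposited log2 table. Lamp2, the partner glycoprotein that also serves chaperone-mediated autophagy, had levels of 2.77, 2.75, 2.79 and 2.86 with melatonin and 2.98, 2.98, 3.38 and 3.50 without it. The melatonin arm was flat, and the other arm higher at 3 and 5 h than before. Its change at 5 h was 0.30 and was not called.

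With LPS, the proton pump genes among the members went up where they were called. Of 5 genes, Atp6v1h and Atp6v1b2 had risen at 5 h and none had fallen, and both calls held under all 16 alternatives. Atp6v1h, the H subunit of the cytosolic V1 sector (probe at chr1:5152352-5152411 in mm9), had levels of 3.15, 3.33, 3.91 and 4.24 with melatonin and 3.30, 3.51, 4.17 and 4.50 without it. Both arms climbed at every step, and both 5 h arrays lay above both 0 h arrays. Atp6v1h rose by 1.15 (SE 0.07, adjusted p = 0.000353), and Atp6v1b2, the B subunit of the same sector, by 0.73 (SE 0.09, adjusted p = 0.0025). The A subunit gene Atp6v1a, the membrane subunit gene Atp6v0d1 and the accessory gene Atp6ap1 had changes of 0.17, 0.23 and 0.27 at 5 h that were not called. Atp6ap1 was called higher with a filter on all 8 arrays (adjusted p = 0.0452) and with a common floor (adjusted p = 0.0378). It was also called with the mean of its entered probes (0.29, adjusted p = 0.0372).

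Tfeb itself could not be given a single direction. Its brightest probe (chr17:47896359-47896418 in mm9) had levels of -0.68, -0.69, -0.58 and -0.37 with melatonin and -0.50, -0.42, 0.03 and 0.14 without it, and rose by 0.47 at 5 h (SE 0.13, adjusted p = 0.0323). The other 3 entered probes had changes of -0.48, -3.11 and -0.72 at 5 h. The steepest of them, at chr17:47929089-47929148 (mm9), was well above background on 5 arrays, with levels of -2.10, -2.63, -3.62 and -4.23 with melatonin and -1.79, -2.27, -5.70 and -5.87 without it. With the mean of the 4 probes, Tfeb fell by 0.96 on the log2 scale at 5 h (adjusted p = 0.0183), and the rise of the brightest probe was also lost on leaving out any of 5 arrays (adjusted p between 0.0578 and 0.2), namely the 0 h array without melatonin, both at 1 h and both at 5 h.

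Probe choice mattered for 4 of 16 genes with several entered probes. At 5 h the probes of Tfeb, Sgsh, Gusb and Grn differed in sign, and those of the other 12 genes did not. Sgsh, the heparan sulfate sulfamidase, was represented by a probe with levels of 5.31, 5.43, 5.48 and 5.60 with melatonin and 5.42, 5.57, 5.91 and 6.15 without it, which rose by 0.51 (SE 0.12, adjusted p = 0.0182). The second Sgsh probe, well above background on 4 arrays, had levels of -3.28, -3.24, -5.52 and -4.87 with melatonin and -3.61, -4.12, -6.77 and -6.61 without it. The first probe was higher and the second lower at 5 h than at 0 h in both arms. On arrays where a probe was not well above background, its level is only a bound. The rise of Sgsh was also lost without the arrays lacking melatonin at 0 h or 5 h (adjusted p 0.102 and 0.116) and with quantile normalization.

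**Figure D3:**
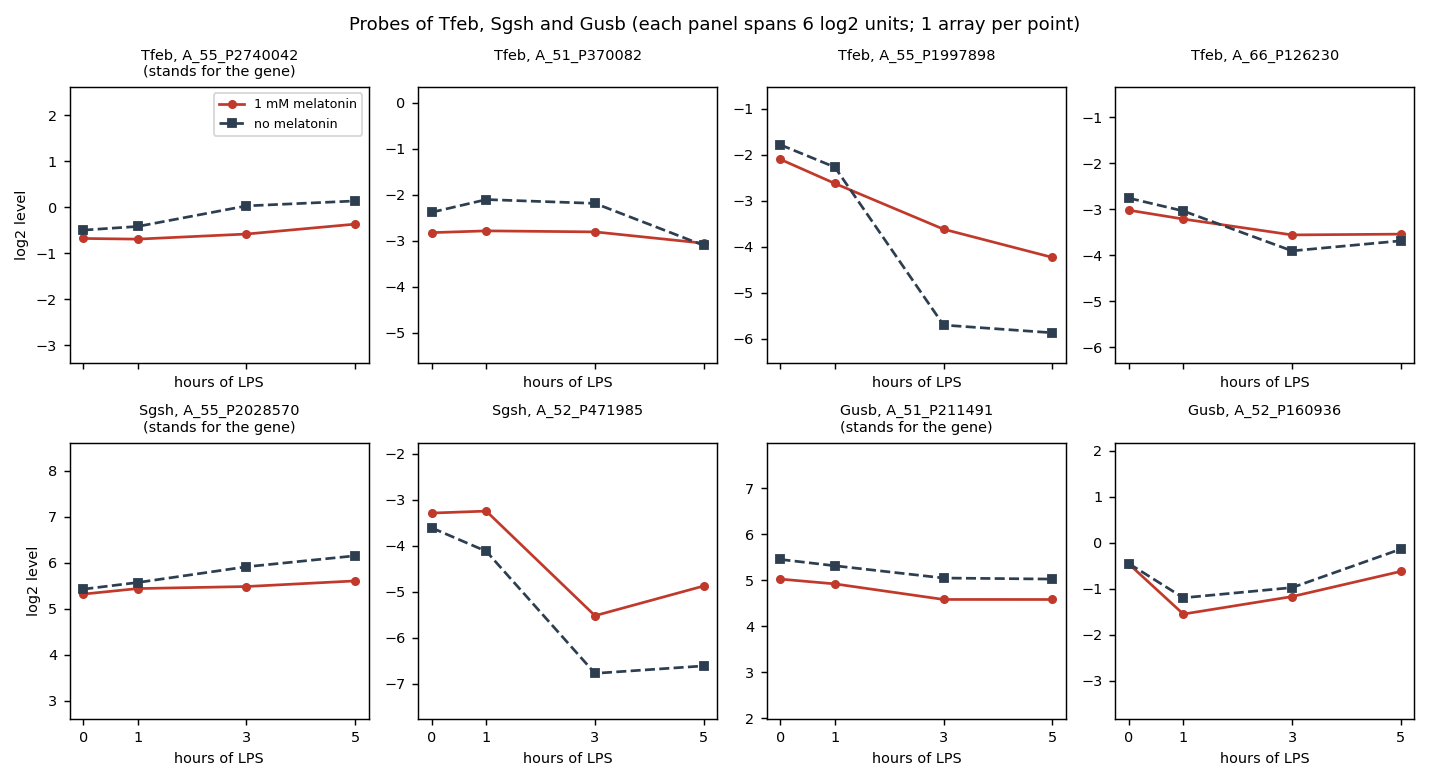
Log2 levels of the entered probes of Tfeb, Sgsh and Gusb (vertical axes) against hours of LPS, with melatonin (red circles) and without it (dark squares), 1 array per point and the same span in every panel. The Tfeb and Sgsh probes that stand for their genes are higher at 5 h than at 0 h in both arms, and the second Sgsh probe drops to -4.87 with melatonin and -6.61 without it.

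Between 1 and 5 h of LPS, where both sides had received LPS, 17 of 33 members were called (51.5%), 8 higher and 9 lower, against 31% of all features (17.6% higher, 13.4% lower). With quantile normalization the split was 4 higher and 14 lower. Atp6v1b2, Atp6v1h, Ctsc, Ctsh, Ctsz, Glb1 and Man2b1 held this call under all 16 alternatives. Leaving out the 1 h array lacking melatonin gave the fewest of these calls, among the members and over all features alike.

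With melatonin, more members were lower than higher. The difference was called for 22 of 33 genes (66.7%), 7 higher and 15 lower, against 40.6% of all features (15.3% higher, 25.3% lower), and no member differed by 2-fold or more. Melatonin arrays were higher at all 4 times in 9 members (27.3%, against 22.5% of all features) and lower at all 4 in 17 (51.5%, against 36.7%). The median size of the difference without sign was 0.271 for the members, against 0.276 for all features. With sign, the median difference of the members was -0.14, against -0.10 for all features. That lean depended on scaling: with quantile normalization 20 members were called, 11 higher and 9 lower, and the median over the 33 genes was -0.03. Among all features the higher share with that scaling was 52.6%, against 37.7%.

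Ctsb had the largest difference among the members with the scaling used here. The levels given by its probe (chr14:63761826-63761885 in mm9) were 6.42, 6.43, 6.52 and 6.58 with melatonin and 7.04, 7.10, 7.39 and 7.52 without it. All 4 melatonin arrays lay below all 4 arrays without it, and the difference was -0.62 at 0 h and -0.95 at 5 h. The mean difference was -0.78 (SE 0.06, adjusted p = 0.00227), or 0.584 of the level without melatonin, and its call held under all 16 alternatives. With quantile normalization it was -0.54, and the differences of Naglu (0.62) and Neu1 (0.57) were larger in size.

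The other cathepsins leaned the same way, apart from Ctsh and Ctsd. Ctss, which trims the invariant chain of class II molecules in antigen-presenting cells, had levels of 6.21, 6.16, 6.04 and 6.25 with melatonin and 6.71, 6.43, 6.68 and 6.64 without it. The 2 sets did not overlap. The difference was -0.45 (SE 0.06, adjusted p = 0.0054). Ctsc differed by -0.46 (adjusted p = 0.00768), Ctsz by -0.40 (adjusted p = 0.00449) and Ctsl by -0.25 (adjusted p = 0.00756). The calls of Ctss, Ctsc and Ctsz held under all 16 alternatives, though quantile normalization gave -0.25 for Ctss and -0.19 for Ctsz. That of Ctsl did not hold with quantile normalization (-0.03) or the deposited log2 table.

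Ctsa, a serine carboxypeptidase that shields Glb1 and Neu1 from breakdown, differed by -0.20 (adjusted p = 0.00653), but by 0.01 (adjusted p = 0.678) with quantile normalization. Ctsh, which LPS lowered, was higher with melatonin at each time, by 0.30 (SE 0.03, adjusted p = 0.00293), and its call held under all 16 alternatives, with 0.49 under quantile normalization. Ctsd, the main aspartic cathepsin, had a difference of 0.11 and was not called, but reached 0.36 (adjusted p = 0.00791) with quantile normalization.

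Among the enzymes that strip sugars or sulfate, melatonin went with 4 higher and 4 lower genes. Naglu (0.45, SE 0.06, adjusted p = 0.0055), Glb1 (0.39, SE 0.05, adjusted p = 0.00499), Neu1 (0.40, adjusted p = 0.0286) and Man2b1 (0.26, adjusted p = 0.0149) were higher at each of the 4 times. Gusb (-0.43, SE 0.04, adjusted p = 0.00254), Gla (-0.31, SE 0.03, adjusted p = 0.00254), Sgsh (-0.30, adjusted p = 0.0347) and Hexa (-0.27, adjusted p = 0.0112) were lower at each. Gusb had levels of 5.03, 4.92, 4.58 and 4.58 with melatonin and 5.45, 5.32, 5.05 and 5.03 without it, and differences between -0.47 and -0.39 at the 4 times. The calls of Naglu, Glb1, Gusb and Gla held under all 16 alternatives, but quantile normalization gave -0.18 for Gusb and -0.09 for Gla. That scaling and the deposited log2 table ended the calls of Sgsh (-0.05 with both) and Hexa (-0.11 with both), and quantile normalization gave 0.45 for Man2b1. The second Sgsh probe was higher with melatonin at all 4 times, by 0.32, 0.87, 1.25 and 1.74, and the mean of the 2 probes was higher with melatonin (0.37, adjusted p = 0.0265). Those of Neu1 and Sgsh were each lost on leaving out any 1 of the 6 arrays with LPS (adjusted p up to 0.0885 and 0.123), that of Man2b1 without either 1 h array (0.0707 and 0.0714) and that of Hexa without the 1 h array lacking melatonin (0.0501).

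Npc1, the membrane protein that exports cholesterol from lysosomes, had levels of 1.52, 1.50, 1.31 and 1.42 with melatonin and 1.26, 1.21, 0.55 and 0.88 without it. It was the only member whose 4 melatonin arrays all lay above the other 4 (3.03% of the members, against 6.54% of all features). The difference was 0.46 (SE 0.10, adjusted p = 0.0173), and the call was lost without any 1 of the arrays at 3 or 5 h (adjusted p between 0.0538 and 0.0588). All 4 melatonin arrays lay below the other 4 in 7 members, which were Ctsa, Ctsb, Ctss, Gusb, Grn, Lamp2 and Cd63 (21.2%, against 12.7% of all features). Grn differed by -0.23 (adjusted p = 0.00553), but by -0.03 with quantile normalization, where it was not called.

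Cd63 had levels of 4.55, 4.63, 4.97 and 5.01 with melatonin and 5.11, 5.13, 5.32 and 5.42 without it, a difference of -0.45 (SE 0.05, adjusted p = 0.00339; -0.20 with quantile normalization). Lamp2 differed by -0.42 (adjusted p = 0.0189) and Mcoln1 by 0.19 (adjusted p = 0.0357). The Lamp2 call was lost without any 1 of the arrays at 3 or 5 h (adjusted p up to 0.0766), and with the mean of its probes (-0.22, adjusted p = 0.169). That of Mcoln1 was lost on leaving out any 1 of the 8 arrays (up to 0.137), and quantile normalization gave 0.29. Lamp1 was not called, with -0.07, and its sign turned with quantile normalization (0.14, adjusted p = 0.0218). Among the pump genes only Atp6v1h was called, with -0.21 (adjusted p = 0.0199), and it too was lost on leaving out any 1 of the 6 arrays with LPS (adjusted p up to 0.0764). Quantile normalization (-0.04, adjusted p = 0.514) and the deposited log2 table also ended it. Tfeb differed by -0.39 (adjusted p = 0.0227) at its brightest probe, a call lost on leaving out any 1 of those 6 arrays (adjusted p up to 0.0798), and 2 of its other 3 probes gave positive differences. With the mean of its probes the difference was -0.01 (adjusted p = 0.963).

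**Figure D4:**
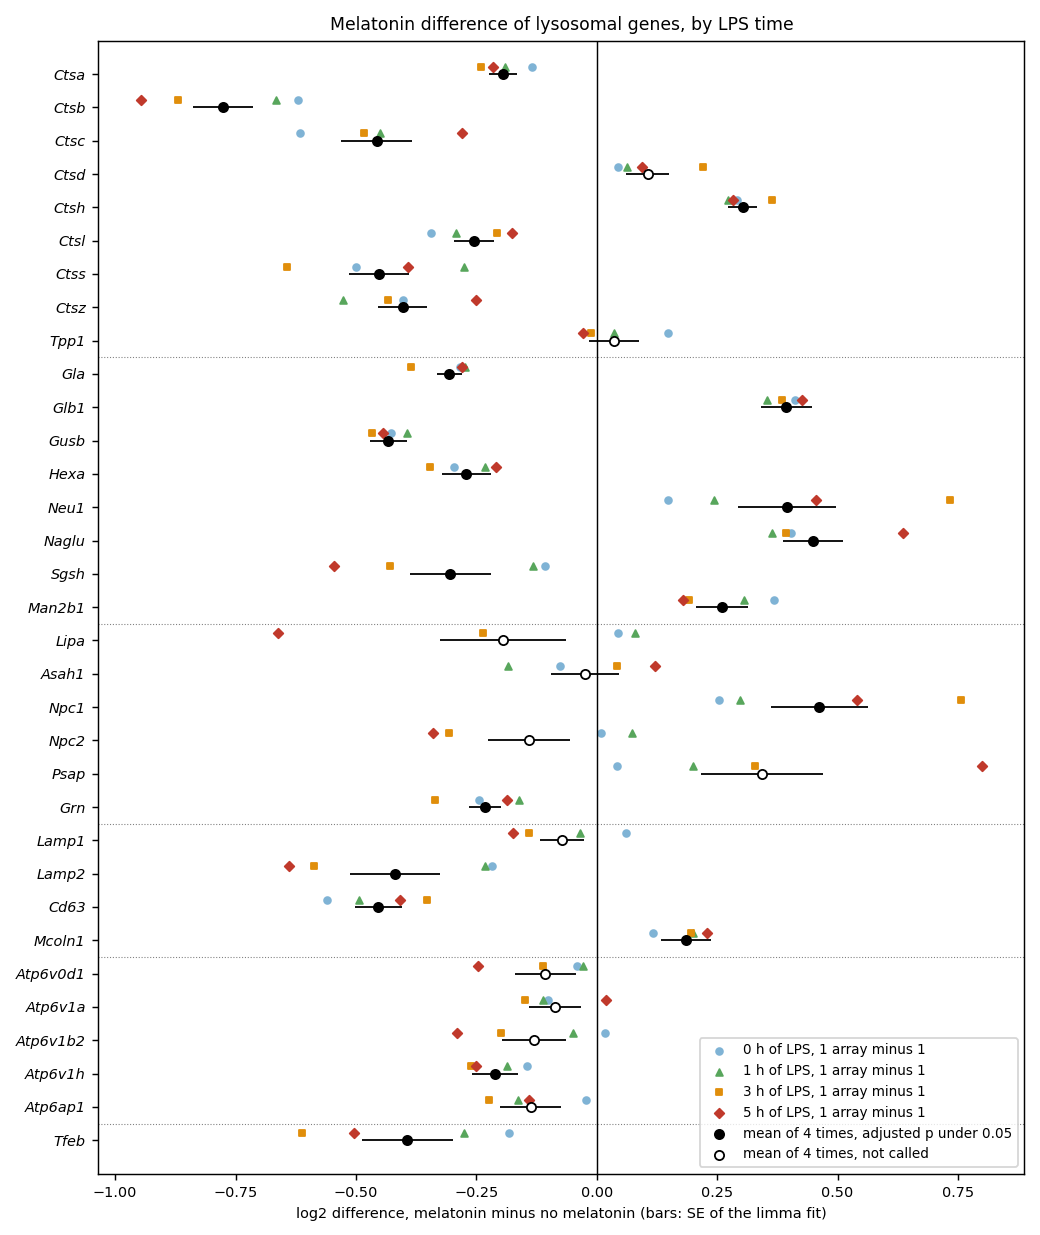
Log2 difference, melatonin minus no melatonin, for each of the 33 genes: coloured points are the differences at 0, 1, 3 and 5 h of LPS (1 array minus 1), and black points with SE bars their mean from the limma fit, filled where the adjusted p was under 0.05. Ctsb has the lowest mean (-0.78) and Npc1 the highest (0.46), and dotted lines separate the roles.

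Whether melatonin changed the response to LPS was asked with a further term, the melatonin difference averaged over the 3 LPS times less the one without LPS. None of the 33 members was called, as 0% of all 20079 features were, and the lowest adjusted p among the members was 0.908. No member had an unadjusted p under 0.05, while 754 features did. The largest terms among the members were 0.40 for Psap, 0.33 for Neu1 and -0.32 for Lipa. The model had 2 residual degrees of freedom, and a term that missed the threshold does not show that the arms responded alike.

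Other genes of the compartment were read from 7 lists with 124 of 129 genes measured. At 5 h, 26 of the 124 were higher and 31 lower, together 46%, a share near the 44.2% of all features. Other soluble enzymes had 0 higher and 13 lower of 30, which is 43.3% in all, likewise near that share, and 43.3% lower against 19.4% of all features. The steepest falls were those of the cysteine cathepsins Ctsf (-1.40, adjusted p = 0.000437) and Ctso (-1.40, adjusted p = 0.0197). The Ctso probe was dim, well above background on 6 arrays, with a level of -4.48 at 5 h without melatonin. Other V-ATPase subunits had 9 higher and 2 lower of 13 (69.2% higher, against 24.9% of all features), with Atp6v0a1 up by 1.39 (adjusted p = 0.000873) and Tcirg1 up by 0.78 (adjusted p = 0.0175), both a subunits of the membrane sector. Atp6v0e2 (-1.58, adjusted p = 0.00191) and Atp6v0a2 (-0.51, adjusted p = 0.0142) were the 2 that fell.

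Other lysosomal membrane proteins had 5 higher and 5 lower of 25 (40%), a share near the 44.2% of all features. Slc15a3, a peptide and histidine transporter of the lysosome, had levels of 1.03, 1.64, 3.86 and 5.04 with melatonin and 1.65, 2.74, 4.99 and 5.70 without it. Both arms climbed steeply, and Slc15a3 rose by 4.03 (adjusted p = 0.00011). The channel gene Mcoln2, a relative of Mcoln1, had levels of -0.0047, -0.18, 1.41 and 0.94 with melatonin and 1.12, 1.05, 3.39 and 4.03 without it. Mcoln2 rose by 1.93 (adjusted p = 0.0196) and was lower with melatonin (difference -1.86, adjusted p = 0.00975), where Mcoln1 fell with LPS and was higher with melatonin. Tpcn1 (-2.05) and Laptm5 (-1.20) had the steepest falls of that list.

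Sorting to and fusion with lysosomes had 3 higher and 3 lower of 21 (28.6%, against 44.2% of all features). Higher were the mannose 6-phosphate receptor gene M6pr (1.15, adjusted p = 0.000442) and Nagpa (1.22, adjusted p = 0.00341), which uncovers the mannose 6-phosphate tag. Lower were Gnptab (-1.17, adjusted p = 0.00491), whose enzyme starts that tag, and Gga2 (-1.57, adjusted p = 0.00915), an adaptor at the trans-Golgi. Cystatins, which inhibit cysteine cathepsins, had 1 higher and 1 lower of 5 (40%), likewise near the share of all features. They were Cstb, up by 0.93 (adjusted p = 0.000986), and Cst7, at -0.87 (adjusted p = 0.00171). Autophagy genes had 6 higher and 5 lower of 16 (37.5% higher and 31.2% lower, against 24.9% and 19.4% of all features). Sqstm1, the autophagy receptor p62, was up by 1.92 (adjusted p = 0.000274) and Wipi2 by 0.90 (adjusted p = 0.0236). Wipi1 was at -2.12 (adjusted p = 0.003) and Uvrag at -1.89 (adjusted p = 0.000518). Relatives and nutrient-sensing partners of Tfeb had 2 higher (Rraga, 0.92, and Lamtor3, 0.68) and 2 lower (Lamtor4, -0.77, and Lamtor2, -0.35) of 14. That is 28.6%, against 44.2% of all features. Tfe3 was not called at 5 h (0.07, adjusted p = 0.704), and Mitf rose at 3 h (0.68, adjusted p = 0.00964) but was not called at 5 h (-0.15, adjusted p = 0.344). With melatonin, 24 genes of the 7 lists were higher and 24 lower, together 38.7%, a share near the 40.6% of all features. Of the 24 calls at 5 h among the genes followed one by one from these lists, 17 held under all 16 alternatives, and those of Atp6v0a2, Ctso, Gga2, Lamtor2, Mcoln2, Tcirg1 and Wipi2 did not (adjusted p up to 0.397). Each of these 7 calls except that of Ctso was lost without the 0 h array lacking melatonin, and that of Ctso without the 5 h array lacking melatonin or the 0 h melatonin array.

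The 11 members with an E-box in a promoter window did not share a direction. At 5 h Ctsl, Gla and Sgsh were higher, Glb1, Naglu, Lamp1 and Mcoln1 lower, and Ctsa, Ctsd, Atp6v0d1 and Atp6v1a not called, with quantile normalization ending the calls of Ctsl and Sgsh and adding that of Ctsa, as lower (-0.35, adjusted p = 0.000995). Glb1, Neu1 and Psap were the 3 members with the AP-1 letters TGACTCA, on either strand, in a window (9.68% of the 31 windows, against 5.2% of all). In Glb1 these letters overlapped the E-box. The 3 genes were among the 12 of 33 members called lower at 5 h, and a link of the letters to direction was not tested.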

How the data were processed

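RNA of 8 RAW264.7 cultures was hybridised to 8 one-colour (Cy3) Agilent arrays on 1 slide. Per the file headers, the deposited intensity came as the processed signal that Agilent Feature Extraction (12.0.3.1, as in the submitters' processing notes) writes after background subtraction and detrending, and the flags for spots well above background, saturated or outlying are other columns of the scanner output deposited by the authors. A deposited log2 table, which served 1 alternative, had correlations of 0.9993 or above with those signals on the log2 scale; no source used here says how the authors normalized it.

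Each array was scaled by subtracting the 75th percentile of its signal on the log2 scale, and that percentile was 846.1, 823.4, 793.9 and 718.7 at 0, 1, 3 and 5 h with melatonin and 830.1, 793.8, 688.6 and 659.1 without it. Of 62976 spots per array, 3671 control spots and any outlier spots did not enter, no spot was saturated, and 46.96% to 52.98% of probes were well above background. The filter of 2 arrays well above background passed 30429 probes, and a gene was read from its brightest such probe by mean. R 4.3.3, limma 3.58.1 (lmFit and eBayes with an intensity trend) and data.table (version 1.17.8) were used. An additive model of LPS time and melatonin had 3 residual degrees of freedom, and a second with a melatonin by LPS term had 2. The additive model was run on simulated data, with 50 of 20073 genes changed at 5 h per size and direction, far fewer than were called here. It called 40% and 22% of log2 changes of 1 and -1, and 0% and 2% of changes of 0.5 and -0.5. With so few genes changed, the adjusted p is harder to pass than in the data, so these rates do not carry over to the members. A change not called may still be real. Genes were named from the array files, updated through RefSeq accessions for 1535 probes. Coordinates of probes were copied from the files (mm9). The number of arrays limits the precision. The 16 alternatives were quantile normalization, the deposited log2 table, normexp background correction with an offset of 50, no filter on dim probes, a filter on all 8 arrays, a common floor, no intensity trend, the mean of all entered probes of a gene, and each array left out in turn.

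The named genes are all 33 members and, from each of the 7 other lists, the 2 largest rises and falls among genes called at 5 h, with Tfe3 and Mitf. The members and lists were chosen with earlier results of these data known.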

Additional observations from a re-analysis of the deposited data

How the results depend on the processing

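Under the 16 alternatives, 5 of the 19 member calls at 3 h, 12 of the 23 at 5 h, 7 of the 17 between 1 and 5 h and 9 of the 22 for melatonin held every time. The 16 are not separate checks. Both changes of filter, the common floor and no intensity trend left the median changes of the members as they were. The deposited log2 table lay close to quantile normalization, as for Psap at 5 h (-1.39 and -1.40). For a gene with 1 entered probe, the mean of its probes was that probe. Leaving out 1 array at a time gave 0 members called at 1 h, 8 to 18 at 3 h, 17 to 25 at 5 h, 7 to 18 between 1 and 5 h, 15 to 21 for melatonin and 0 for melatonin by LPS; where it left a time with 1 array, that array was assumed to vary like the others. Over all features the ranges were 95 to 320, 2489 to 6811, 4475 to 8384, 1650 to 5787, 4134 to 6765 and 0 to 40, in the same order. Without the intensity trend 11 members were called between 1 and 5 h, against 17, and 159 features at 1 h, against 393. At 1 h, no filter on dim probes gave 137 features and a common floor 99, and the mean of all entered probes gave 2 members, against 0.

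Quantile normalization turned the sign of Ctsa with melatonin (0.0125), Ctsb at 5 h (-1e-04), Grn at 3 h (-0.12) and 5 h (-0.13) and Lamp1 with melatonin (0.14), and the deposited log2 table that of Grn (-0.10 and -0.12). The mean of all entered probes turned Gusb between 1 and 5 h (0.34), Sgsh at 3 h (-1.19), 5 h (-0.89), between 1 and 5 h (-0.84) and for melatonin (0.37), and Tfeb at 3 h (-0.79), 5 h (-0.96) and between 1 and 5 h (-0.82), where the probes themselves differ in sign. The cause of the quantile differences was not tested. Higher shares of all features called with quantile normalization were 42.4% at 3 h, against 55.2%, and 41.8% between 1 and 5 h, against 56.8%. No paired analysis was possible because each condition has 1 array and so no replicate number to pair on, beyond the matching of the arms by LPS time that the additive model already holds. Signal over background limits the dim probes of Tfeb, Sgsh and Ctso.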
